A study of Mus with 9 samples.

Results

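The genes examined were those of the amyloid and tau pathways of the hippocampus, 9 of the 22662 gene symbols named in the deposited tables. They were taken by symbol, and each matched 1 probe set, the group of short array probes that reads 1 transcript cluster. App encodes the amyloid precursor protein. Bace1 encodes beta-secretase, and Psen2, Ncstn and Aph1a encode parts of gamma-secretase. Ide and Mme encode enzymes that degrade amyloid-beta, Apoe encodes the main lipid carrier of the brain, and Mapt encodes tau.

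RNA was measured on Clariom S Mouse arrays in hippocampi of 3 groups of male mice, with 3 arrays per group. The mice were 16 weeks old when the experiment began. SAMP8 is an inbred, senescence-prone strain with early loss of learning and memory, and SAMR1 is the senescence-resistant strain used as the control of normal aging. Trigonelline (TG), a plant alkaloid, was given orally to SAMP8 mice for 30 days, at a daily 5 mg/kg, and during 8 further days of maze testing, and the vehicle was given to the SAMR1 and the nontreated SAMP8 mice, which went through the same maze. The strains differ across the genome, so a difference between SAMP8 and SAMR1 cannot be tied to senescence alone. The sample records call the vehicle saline and the methods call it water. The description in each record is that of a cultured macrophage line, although the tissue is given as hippocampus, and the series text speaks of duplicate samples where 3 are recorded per group. Groups were taken from the sample titles.

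Amyloid-beta is cut from the amyloid precursor protein by beta-secretase and then by gamma-secretase, a membrane complex of a presenilin, nicastrin, an Aph1 protein and Psenen. Cutting by alpha-secretase, an ADAM protease, falls inside the amyloid-beta stretch and prevents its release. The peptide is degraded by insulin-degrading enzyme and neprilysin and is cleared with the help of apolipoprotein E, which astrocytes and microglia release. Tau binds and stabilizes the microtubules of axons, and kinases such as GSK3 and CDK5 phosphorylate it. Accumulation of the precursor protein and of amyloid-beta in the aging hippocampus is a known trait of the SAMP8 strain. RNA levels say nothing of the amount, cutting or phosphorylation of these proteins.

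The files give 1 average of log2 signal per group and gene, and values per array were not analysed here. No spread between mice could therefore be set against any difference, and no test was run. As a scale in place of the missing error, each difference of averages was placed among the 1110 or 1111 probe sets of like average signal, and the interval holding the middle 95% of them is called the range of like probe sets below. The averages are rounded to 0.01, so a difference is known to within 0.01. SAMP8 averages were the same in both deposited tables, with a largest gap of 0.0, so every comparison with SAMP8 shares the same arrays.

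Of the 9 genes, 4 were more than 1.1-fold (0.138 on the log2 scale) higher in SAMP8 than in SAMR1. These were Mapt, Mme, Bace1 and App, and 0 were lower by that much. Among all 22206 probe sets, 33.0% were higher and 32.5% lower by that limit. The median difference of the 9 genes was 0.06 on the log2 scale, against 0.0 over all probe sets. With TG, 4 genes (Mapt, Ide, Apoe and Bace1) were higher than in nontreated SAMP8 by the same limit and 2 (Aph1a and Mme) were lower, beside 32.4% of all probe sets higher and 31.0% lower. The median difference was 0.13, against 0.01 over all probe sets. In either comparison 0 of the 9 genes passed 1.5-fold, which 11.1% of all probe sets passed in SAMP8 vs SAMR1 and 8.21% in TG-treated SAMP8 vs SAMP8. Each of these 18 differences lay inside its range of like probe sets. The shares of all probe sets given here also stand beside the counts of each gene list below. In bulk tissue, fewer cells of a type and less RNA per cell cannot be told apart.

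**Figure D1:**
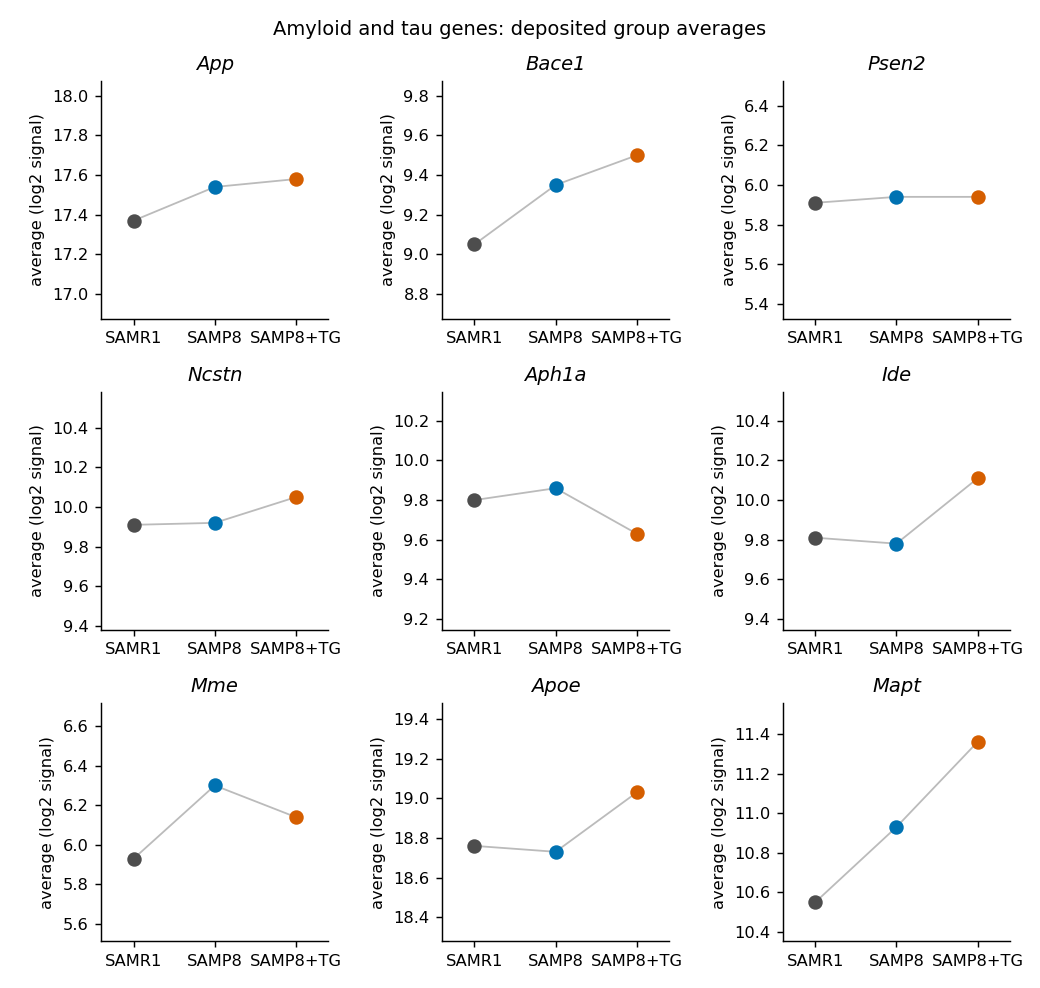
Deposited group averages of the 9 genes, in log2 signal, with 1 point per group and no error bar because values per array were not analysed here. Each panel spans the same height of 1.2 log2 units, so slopes can be compared between panels. Mapt stands at 10.55, 10.93 and 11.36, Apoe and Ide stand apart only in the TG-treated group, and Psen2 is flat at 5.91 to 5.94.

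App, on chromosome 16 from 84952666 to 85175255 (GRCm38), averaged 17.37 on the log2 scale in SAMR1, 17.54 in nontreated SAMP8 and 17.58 with TG. Both SAMP8 groups thus lay above SAMR1 and close to each other. The precursor was 1.13-fold higher in SAMP8 than in SAMR1, a log2 difference of 0.17 at the percentile 63.2 of like probe sets, whose median was itself 0.09. The log2 difference with TG was 0.04. The average of App is high on the scale of the array, whose top value of 19.93 is shared by 10 probe sets in each group. App did not reach that value in any group.

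Bace1, on chromosome 9 from 45838545 to 45862484, stood at 9.05 in SAMR1, 9.35 in SAMP8 and 9.50 with TG. The protease makes the first of the cuts that free amyloid-beta. Its average was lowest in SAMR1 and highest with TG. It was 1.23-fold higher in SAMP8 than in SAMR1, with a log2 difference of 0.30 at the percentile 71.4 of like probe sets (median 0.14). With TG the log2 difference was 0.15, at the percentile 73.5. That last difference lay only just past the limit of 0.138, and it was 0.12 once each group was centred on its own median.

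The gamma-secretase genes among the members differed little between the strains. Psen2, on chromosome 1 from 180227004 to 180263467, encodes presenilin 2, a catalytic subunit, and stood at 5.91, 5.94 and 5.94 in SAMR1, SAMP8 and TG-treated SAMP8. These averages lay within 0.03 of each other and near the median of all probe sets, which was 6.04 to 6.09 in the groups. Whether the probe set rose above background is not known, because no detection call was among the values used. Ncstn, on the same chromosome from 172066013 to 172082789, encodes nicastrin, which holds the substrate. It stood at 9.91 and 9.92 in the nontreated groups and at 10.05 with TG. The log2 difference of 0.13 with TG stayed just under the limit of 1.1-fold, by less than the rounding of the averages.

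Aph1a, on chromosome 3 from 95893921 to 95898592, encodes a scaffold subunit of gamma-secretase. It averaged 9.80 in SAMR1, 9.86 in SAMP8 and 9.63 with TG, so the treated group was the lowest. Between the strains the log2 difference was 0.06. With TG it was -0.23, a 1.17-fold lower average and the lowest difference of the 9 genes, at the percentile 29.2 of like probe sets. The Aph1a gene spans 4.7 kb, and the median log2 difference with TG of probe sets of like signal and like span was 0.19. Against those 219 probe sets Aph1a lay at the percentile 13.5.

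Other secretase genes were read from a list of 7. In SAMP8 vs SAMR1, 3 of the 7 were higher by 1.1-fold and 1 was lower, and with TG 1 was higher and 4 were lower. Psenen, the smallest subunit of the complex, stood at 8.95 in SAMR1, 8.65 in SAMP8 and 9.29 with TG. Its log2 difference with TG of 0.64 was the only one of the list past 1.5-fold. The Psenen gene spans 1.8 kb. Among 219 probe sets of like signal and like span the median with TG was 0.23, and Psenen lay at the percentile 84.0. Aph1b stood at 8.26, 8.51 and 8.08 and Aph1c at 6.99, 7.40 and 7.09. Aph1b and Aph1c are near-identical mouse copies, and how far their probes share signal was not tested. Thus the gamma-secretase genes described here, members included, did not differ in 1 direction with TG.

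The alpha-secretase genes of the same list were highest in nontreated SAMP8. Adam10, the chief alpha-secretase of neurons, stood at 10.75 in SAMR1, 10.87 in SAMP8 and 10.65 with TG. Adam9 stood at 9.77, 10.13 and 9.76, a log2 difference of 0.36 between the strains and of -0.37 with TG. Adam17 stood at 7.90, 7.97 and 7.85, and Bace2, the relative of Bace1, at 4.34, 4.33 and 4.33, below the median of all probe sets. For these ADAM genes the medians of like probe sets had the same signs, 0.10 to 0.14 between the strains and -0.08 to -0.05 with TG. Adam10 lay at the percentiles 48.1 and 33.8 of like probe sets in the 2 comparisons. Adam17 lay at 46.8 and 40.7, and Adam9 at 73.9 and 16.9. A high average in the shared SAMP8 arrays alone gives opposite signs in the 2 comparisons, so these signs are not independent of each other.

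Ide, on chromosome 19 from 37268743 to 37334544, encodes insulin-degrading enzyme, a zinc protease of the cytosol. It stood at 9.81 in SAMR1, 9.78 in SAMP8 and 10.11 with TG. The nontreated strains differed by -0.03 on the log2 scale, and the treated group lay above both. Between the strains Ide lay at the percentile 26.6 of like probe sets, whose median was 0.14. With TG the log2 difference was 0.33, or 1.26-fold, at the percentile 87.5 of like probe sets, whose median was -0.06. Among 219 probe sets of like signal and like span (65.8 kb for Ide) the percentile was 95.4.

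Mme, on chromosome 3 from 63295211 to 63383713, encodes neprilysin, a membrane protease and a main degrader of amyloid-beta outside the cell. It averaged 5.93 in SAMR1, 6.30 in SAMP8 and 6.14 with TG. Nontreated SAMP8 was the highest group. The log2 difference was 0.37 between the strains, or 1.29-fold, at the percentile 86.8 of like probe sets, and -0.16 with TG, at the percentile 26.6. As with Psen2, these averages lie near the median of all probe sets. Among the 216 probe sets of like signal and like span the percentile of Mme with TG was 41.0, and after their median was subtracted its log2 difference was -0.08, inside the 1.1-fold limit.

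Other proteases that can degrade amyloid-beta, 12 genes with their activators and an inhibitor, showed no common direction. In SAMP8 vs SAMR1, 4 were higher by 1.1-fold and 3 lower, beside 33.0% and 32.5% of all probe sets. With TG 3 were higher and 3 lower, beside 32.4% and 31.0%. Ctsd, the lysosomal protease cathepsin D, had the highest difference between the strains, with averages of 12.71 in SAMR1, 13.08 in SAMP8 and 13.16 with TG. Thop1, a cytosolic peptidase, had the lowest, 8.50 in SAMR1 and 8.25 in SAMP8, and the highest with TG, where it stood at 8.62. Ece2, an endothelin-converting enzyme, had the lowest difference with TG, from 8.63 to 7.92. That was -0.71 on the log2 scale and the only difference of this list past 1.5-fold in the 2 comparisons.

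**Figure D2:**
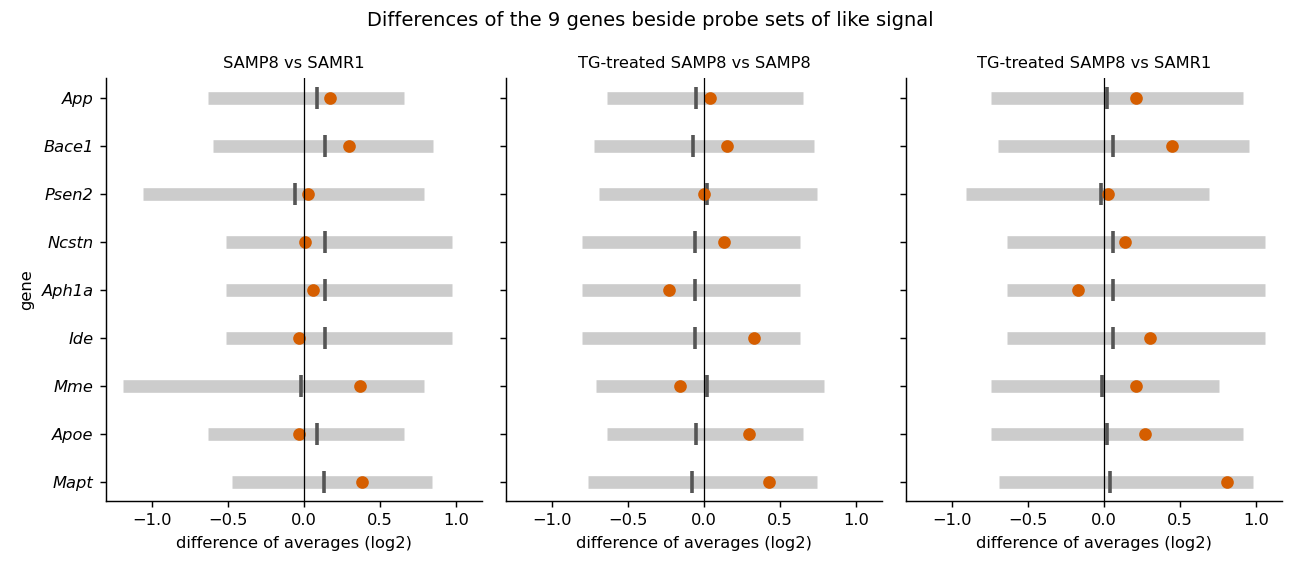
Differences of deposited group averages (log2) of the 9 genes in the 3 comparisons, as orange points. Grey bars hold the middle 95% of probe sets of like average signal and the dark tick is their median. Every point lies inside its grey bar, and the point nearest to an end is Mapt at 0.81 in TG-treated SAMP8 vs SAMR1, where the bar ends at 0.98.

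Apoe, on chromosome 7 from 19696244 to 19701310, stood at 18.76 in SAMR1, 18.73 in SAMP8 and 19.03 with TG. Of the members it lay nearest to the array's top value of 19.93, without reaching it. Whether differences are compressed so near the top was not tested. The nontreated strains were close, with a log2 difference of -0.03, and the treated group was higher. Between the strains Apoe lay at the percentile 29.2 of like probe sets, whose median was 0.09. The log2 difference with TG was 0.30, or 1.23-fold, at the percentile 87.3 of like probe sets. The Apoe gene is short, spanning 5.1 kb. Among the 218 probe sets of like signal and like span, the median log2 difference with TG was 0.295, and Apoe lay at the percentile 50.2. Its higher average with TG was therefore matched by that of short genes of high signal in general. Over all probe sets with a known span, the median log2 difference with TG was 0.09 in the fifth of genes with the shortest spans (up to 4.3 kb) and -0.10 in the fifth with the longest (57.5 kb and above). Between the strains the same medians were -0.09 and 0.07. The part of gene length, or of RNA quality, in these differences was not tested.

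Cells that release apolipoprotein E were read through their markers. Of 8 astrocyte markers, 2 were higher by 1.1-fold with TG (S100b and Aldoc) and 1 was lower (Slc1a3), with a median of -0.03 on the log2 scale, and in SAMP8 vs SAMR1 4 were higher and 0 lower. Gfap, the classical marker of reactive astrocytes, stood at 11.08 in SAMR1, 12.03 in SAMP8 and 11.92 with TG. Of 8 microglia markers, 3 were higher and 4 lower with TG, and their median was -0.17. Aif1 had the largest difference of that list, 1.51 between the strains. The mean log2 level of the astrocyte list was 12.28 in SAMR1, 12.58 in SAMP8 and 12.64 with TG. That of the microglia list was 7.67, 7.92 and 7.87. The part of these cells in the level of Apoe was not tested.

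Genes that act with Apoe were read from a list of 17 receptors, lipid transporters, nuclear receptors and clearance genes. In SAMP8 vs SAMR1, 8 were higher by 1.1-fold and 5 lower, and with TG 6 were higher and 4 lower. Between the strains the highest difference was that of Abcg1, a cholesterol exporter, with averages of 8.05 in SAMR1 and 8.89 in SAMP8. The lowest was that of Trem2, a lipid receptor of microglia, with 5.51 and 4.81. These averages of Trem2 lie below the median of all probe sets, and whether its probe set rose above background is not known. Abca1, which loads lipid onto apolipoprotein E, stood at 8.94 in SAMR1, 8.34 in SAMP8 and 8.57 with TG. With TG the highest difference was that of Nr1h2, the liver X receptor beta that drives Apoe and Abca1, from 7.39 to 8.21, and the lowest that of Vldlr, a receptor of apolipoprotein E, from 10.76 to 9.77. Clu, the other abundant apolipoprotein of the brain, stood at 17.35, 17.54 and 17.59 in SAMR1, SAMP8 and TG-treated SAMP8.

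Mapt, on chromosome 11 from 104229409 to 104332090, had the highest difference of the 9 genes in each comparison. It averaged 10.55 in SAMR1, 10.93 in SAMP8 and 11.36 with TG. The groups thus stood in steps, with the treated SAMP8 group farthest from SAMR1. Between the strains the log2 difference was 0.38, or 1.30-fold, at the percentile 80.3 of like probe sets, whose median was 0.13. With TG it was 0.43, or 1.35-fold, at the percentile 92.8. The gene spans 102.7 kb. Among 219 probe sets of like signal and like span the median with TG was -0.17, and Mapt lay at the percentile 98.9.

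Tau is made by neurons and oligodendrocytes. Of 8 neuron markers, 1 was higher by 1.1-fold with TG and 3 were lower, and between the strains 3 were higher and 0 lower. Camk2a, one of the 8, stood at the top value of the array in each group, so that no difference of it could show. Of 6 oligodendrocyte markers, 4 were higher and 1 lower with TG (median 0.255), while in SAMP8 vs SAMR1 1 was higher and 4 were lower (median -0.23). Mobp, a myelin gene, had the largest difference of that list, -0.80 between the strains. The part of either cell type in the level of Mapt was not tested. Markers expected of hippocampus were present, with averages in SAMR1 of 19.93 for Camk2a, 18.02 for Slc17a7 and 11.26 for Prox1, a marker of dentate granule cells. Prox1 stood at 11.85 in SAMP8, and its log2 difference with TG was -0.85.

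Kinases and phosphatases of tau formed a list of 20 genes. In SAMP8 vs SAMR1, 8 were higher by 1.1-fold and 3 lower, and with TG 3 were higher and 3 lower, with 14 inside the limit. Cdk5r2, an activator of the tau kinase CDK5, had the highest difference between the strains, with averages of 9.85 in SAMR1, 10.55 in SAMP8 and 10.64 with TG. Mark1, a kinase that loosens tau from microtubules, had the lowest, 10.45 in SAMR1 and 10.04 in SAMP8. With TG, Ppp2r2b, a regulatory subunit of protein phosphatase 2A, had the highest difference, from 12.48 to 12.76, and Ppp2r1a, the scaffold of the same enzyme, had the lowest, from 15.60 to 15.31. Of the other subunits of that enzyme in the list, Ppp2ca differed by -0.11 on the log2 scale with TG, Ppp2cb by 0.05 and Ppp2r2a by 0.14. In all, 0 of the 20 genes passed 1.5-fold with TG, beside 8.21% of all probe sets.

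Of 9 other microtubule-associated genes, 6 were higher by 1.1-fold in SAMP8 than in SAMR1 and 1 was lower, and with TG 2 were higher and 2 lower. Stmn1, encoding stathmin, which takes microtubules apart, had the highest difference in both comparisons, standing at 13.32 in SAMR1, 14.16 in SAMP8 and 15.23 with TG. The Stmn1 gene spans 5.5 kb. Among 218 probe sets of like signal and like span the median with TG was 0.295, and Stmn1 lay at the percentile 98.4. Map2, the dendritic relative of tau, had the lowest between the strains, 12.28 in SAMR1 and 11.62 in SAMP8. Map4 had the lowest with TG, from 14.26 to 14.00.

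The adaptors and carriers of the precursor protein formed a list of 19 genes with its relatives Aplp1 and Aplp2. In SAMP8 vs SAMR1, 9 were higher by 1.1-fold and 2 lower, and with TG 4 were higher and 7 lower. Gga1, a sorting adaptor of beta-secretase, had the highest difference between the strains, with averages of 5.91 in SAMR1, 6.85 in SAMP8 and 6.35 with TG. Its SAMR1 average lay below the median of all probe sets, 6.09 in that group. Gga3, a second adaptor of the same family, stood at 9.63, 10.47 and 9.83 and had the lowest difference with TG, -0.64 on the log2 scale. Cd2ap had the lowest between the strains, from 7.20 to 6.94. Apbb1, which binds the tail of the precursor protein, had the highest with TG, from 11.85 to 12.47. Aplp1 stood at 14.67, 14.75 and 14.81 and Aplp2 at 14.44, 14.49 and 14.57, each within 0.14 over the 3 groups.

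**Figure D3:**
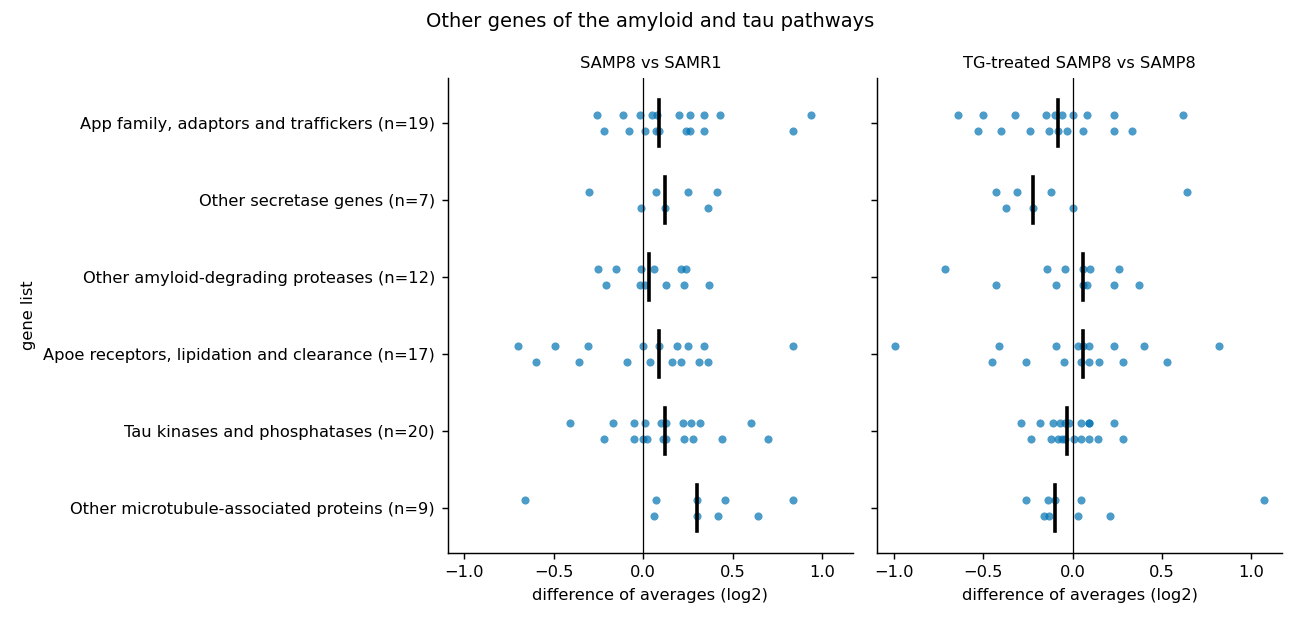
Differences of deposited group averages (log2) of 84 other genes in 6 lists, with 1 point per gene and a black bar at the list's median. Medians run from 0.035 to 0.30 in SAMP8 vs SAMR1 and from -0.22 to 0.06 in TG-treated SAMP8 vs SAMP8.

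Over the 84 genes of these lists, 38 were higher and 15 lower in SAMP8 than in SAMR1 by 1.1-fold, with a median of 0.115 on the log2 scale. Among all probe sets, 33.0% were higher and 32.5% lower by that limit. After the median of probe sets of like signal and span was subtracted, 28 were higher and 19 lower, and with each group centred on its own median 46 were higher and 13 lower. With TG, 19 of the 84 were higher and 23 lower, with a median of -0.035, beside 32.4% and 31.0% of all probe sets. After that subtraction 27 were higher and 21 lower, and with the centring 17 were higher and 29 lower. The shares of all probe sets past the limit after subtraction or centring were not computed. For the 9 amyloid and tau genes the subtraction gave 3 higher and 2 lower in SAMP8 vs SAMR1. The 2 lower were Ide, at -0.19, and Apoe, just past the limit at -0.14. With TG the same subtraction gave 4 higher and 1 lower.

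**Figure D4:**
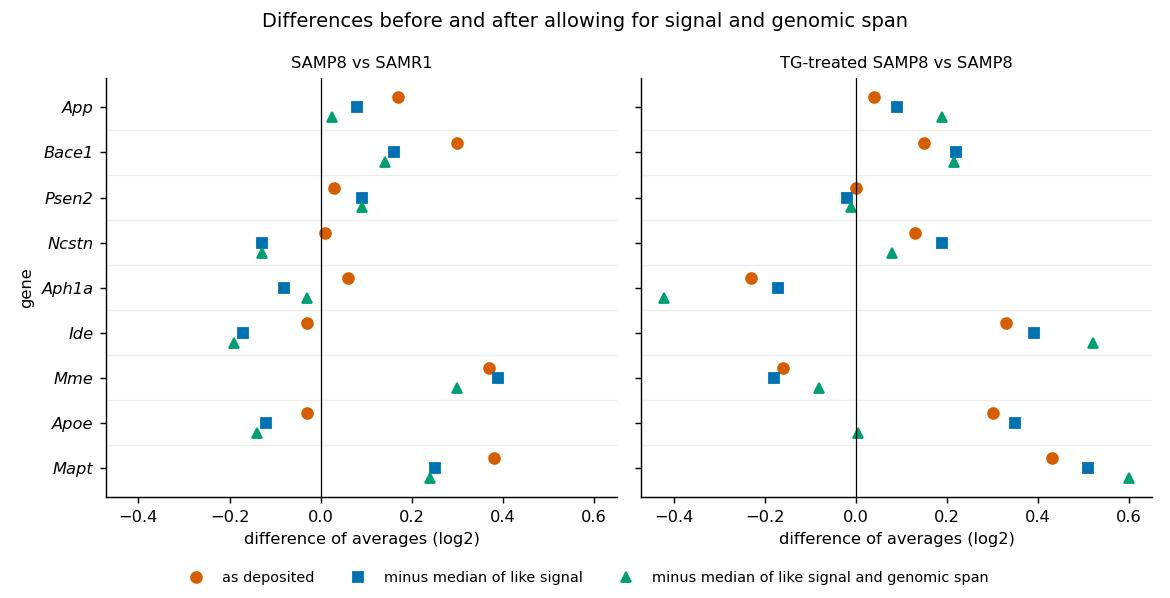
Differences (log2) of the 9 genes as deposited (circles), after subtracting the median of probe sets of like signal (squares), and after subtracting that of like signal and like genomic span (triangles). With TG, Apoe goes from 0.30 to 0.005 and Mapt from 0.43 to 0.60, and in SAMP8 vs SAMR1 App goes from 0.17 to 0.025.

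Compared with SAMR1, the TG-treated SAMP8 group had 7 of the 9 genes higher by 1.1-fold and 1 lower, beside 31.6% of all probe sets higher and 33.3% lower. The median log2 difference of the 9 was 0.21, against -0.01 over all probe sets. Past 1.5-fold was 1 gene, Mapt, where 10.5% of all probe sets passed it. Mapt was 1.75-fold higher, a log2 difference of 0.81 at the percentile 95.1 of like probe sets. Bace1 was next, with a log2 difference of 0.45, and Aph1a was the gene that was lower, at -0.17. Ncstn, at 0.14, was the gene just past the 1.1-fold limit, by less than the rounding. This comparison shares its arrays with both others and adds no independent measurement.

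The genes whose averages differed most like those of App, Apoe and Mapt were sought among the members and the 84 listed genes. Likeness was the distance between pairs of log2 differences, SAMP8 minus SAMR1 and TG-treated SAMP8 minus SAMP8, taken over the 3 group averages. Nearest to App were Clu (distance 0.022) and Ttbk2, a tau kinase (0.041). Nearest to Apoe were Ide (0.03) and Rxra, the partner of the liver X receptors (0.063). Mapt had no neighbour as close: Map1a, another microtubule-associated protein of axons and dendrites, lay at a distance of 0.234 and Bace1 at 0.291. With 3 group averages per gene, such likeness is a description only.

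Tissue next to the hippocampus was read through further marker lists. Of 8 choroid plexus markers, 4 were higher by 1.1-fold and 2 lower in SAMP8 than in SAMR1, and 4 were higher and 2 lower with TG. Ttr stood at 8.45 in SAMR1, 9.33 in SAMP8 and 10.05 with TG, while Kl stood at 6.17, 6.84 and 6.05. Of 8 meninges markers, 2 were higher and 3 lower in SAMP8, and 2 were higher and 4 lower with TG, where Ogn differed by -1.1 on the log2 scale. Of 5 smooth muscle markers, 2 were higher and 2 lower in SAMP8, and 2 were higher and 3 lower with TG. Acta2 stood at 5.52, 7.71 and 5.54 in SAMR1, SAMP8 and TG-treated SAMP8. Tagln went the other way, at 4.74, 3.91 and 4.62. Of 5 endothelium markers, 5 were higher in SAMP8 by the same limit, and with TG 1 was higher and 4 were lower, among them Slco1a4 with a log2 difference of -1.0. Blood markers (5, some read by shared probe sets) were higher for 3 and lower for 1 (Alas2, a log2 difference of -1.06) in SAMP8 and higher for 1 and lower for 4 with TG. Of 5 thalamus markers, 4 were higher and 1 lower in SAMP8, and 2 were lower with TG, where Prkcd went from 11.03 to 9.53. Of 5 striatum markers, 2 were higher and 1 lower in SAMP8, and 1 was higher and 2 were lower with TG, where Drd2 differed by -0.96 on the log2 scale. The part of such tissue in the averages of the 9 genes was not tested.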

How the data were processed

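Per the labels, hippocampal RNA was taken from 3 groups of mice and put on 9 Clariom S Mouse arrays. The authors summarized and normalized the intensities by SST-RMA in the Transcriptome Analysis Console, annotated on mm10, and deposited 2 tables with group averages as log2 signal. The tables also hold the authors' signed fold change as a score and the authors' p-value and adjusted p-value for each comparison, and these columns were not used. The deposited averages carry no error, and the number of arrays limits their precision.

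Differences were taken between the deposited log2 averages, and genes past 1.1-fold, the fold limit of the study's methods, and past 1.5-fold were counted. No test was run, since values per array were not analysed here. This replaces the tests that values per array would have allowed. Each difference was placed in 1 of 20 classes of average signal over the 3 groups, and in 10 by 10 classes of signal and genomic span. Spans and positions come from the RefSeq annotation of GRCm38, on which 97.2% of probe sets could be placed by symbol or synonym. A gene with several probe sets was averaged over them. The calculation was tested on simulated data. Alternatives were centring on group medians, subtraction of class medians, other fold limits, a filter on the lowest 25% of signal, and the probe set of highest signal.

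Named are the 9 genes, the highest and the lowest gene of each list in SAMP8 vs SAMR1 and in TG-treated SAMP8 vs SAMP8, all listed secretase genes, and the 2 genes nearest to App, Apoe and Mapt. Of each marker list the gene with the largest difference in either comparison is named. Abca1, Aplp1, Aplp2, Ppp2ca, Ppp2cb, Ppp2r2a, S100b, Aldoc, Slc1a3, Camk2a, Slc17a7, Kl and Tagln were chosen after their values were seen. Not every gene of these pathways is reported here. The members and lists were chosen with earlier results of these data known. Python 3.11.15, numpy 2.4.6, pandas 2.3.3 and matplotlib 3.10.9 were used.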

Additional observations from a re-analysis of the deposited data

How the results depend on the processing

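Of the differences of the 9 genes recomputed after centring or either subtraction, 68 stayed on the same side of the 1.1-fold limit, 11 crossed it and 2 changed sign from beyond it. The 2 that changed sign did so in TG-treated SAMP8 vs SAMR1 when the median of like signal and span was subtracted: Ncstn went to -0.03 and Apoe to -0.16. Subtracting the median of like signal moved the median of the 9 genes in TG-treated SAMP8 vs SAMP8 from 0.13 to 0.19. Subtracting that of like signal and span gave 0.08 instead, and centring on group medians gave 0.10. Subtraction for signal and span gave 5 genes higher and 2 lower in TG-treated SAMP8 vs SAMR1. At a fold limit of 1.2, 3 of the 9 genes passed in SAMP8 vs SAMR1, 3 with TG and 4 in TG-treated SAMP8 vs SAMR1, beside 40.8%, 38.2% and 40.5% of all probe sets, and of the 84 listed genes 32 passed in SAMP8 vs SAMR1 (53 at 1.1), 24 with TG (42) and 31 in TG-treated SAMP8 vs SAMR1 (52). At 1.5-fold, 0 of the 9 genes passed in SAMP8 vs SAMR1, 0 with TG and 1 in TG-treated SAMP8 vs SAMR1. Of the listed genes 10, 7 and 7 passed, beside 11.1%, 8.21% and 10.5% of all probe sets. Without the lowest 25% of signal, 77 of the 84 listed genes remained. Of these, 50, 40 and 51 passed 1.1-fold in the same 3 comparisons, beside 67.4%, 65.7% and 67.2% of the probe sets kept. No mouse was left out and no paired analysis was possible because the deposited columns are group averages and carry no replicate number, and values per array were not used here. The cause of these shifts was not tested. With no error on the averages, whether a difference exceeds the spread between mice is not known.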
